A study of Caenorhabditis elegans with 6 samples.

Results

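The 38 genes described here encode the core machinery of DNA replication and cell division in the nematode Caenorhabditis elegans. They were picked by name and role from the 46769 entries of the deposited gene table. They comprise 11 genes of DNA replication, 9 cyclins and cell cycle kinases, 7 kinetochore genes, 4 genes of spindle motors and the spindle midzone, and 7 centrosome genes. All 38 were found in the table, and all 38 passed the low-count filter. The study compared 3 RNA-seq libraries of plp-1(ok2155), a strain with a loss-of-function allele of plp-1, with 3 libraries of the wild-type strain N2. Animals of both strains were hermaphrodites of mixed stages (embryos, larvae and adults) grown at 20 °C with OP50 bacteria as food, and RNA was taken when plates were crowded but before the food ran out. The protein PLP-1 is related to Pur-alpha, which binds single-stranded DNA and RNA. The mutant group is 1 strain with 1 allele, and each library is a whole-animal sample. In such bulk samples a change in the share of dividing cells and a change in RNA per dividing cell cannot be told apart.

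The licensing factors CDC-6 and CDT-1 load the MCM helicase, a ring of related subunits MCM-2 to MCM-7, onto replication origins. The sliding clamp PCN-1 (PCNA) then tethers polymerases to DNA, and ribonucleotide reductase supplies the deoxynucleotides. Cyclin-dependent kinases drive the cycle, centrosomes organise the spindle, and kinetochores attach chromosomes to it, which in this worm happens along the whole length of each chromosome. In C. elegans the dividing cells are those of embryos, of some larval lineages and of the germ line, and oocytes store many of these transcripts for the rapid divisions of the early embryo.

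Total counts per library were 41925388 to 46800016 in plp-1(ok2155) and 39331848 to 53486099 in wild-type. Levels are given as CPM, the usual counts-per-million scale, with library totals adjusted by the trimmed mean of M-values (TMM). The mutated gene plp-1 itself held 20.4, 17.6 and 23.03 CPM in the plp-1(ok2155) libraries, against 293, 430.3 and 379 CPM in the wild-type libraries, a log2 fold change of -4.17 ± 0.28 (SE, adjusted p in edgeR 0.00242). The TMM factors ran from 0.965 to 1.08 in plp-1(ok2155) and from 0.848 to 1.21 in wild-type. The lowest count of any of the 38 genes in any library was 79, for cyd-1 in wild-type replicate 3, and 27 of the 38 averaged at least 100 CPM.

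No gene of the 38 passed the threshold between plp-1(ok2155) and wild-type (edgeR's quasi-likelihood test, Benjamini-Hochberg adjusted p under 0.05 over all 15090 tested genes). Over all tested genes 0.345% were called, 0.265% higher and 0.0795% lower in plp-1(ok2155). The adjusted p of the 38 genes lay between 0.523 and 0.988. At an unadjusted p under 0.05 there was 1 gene, cyk-4, which was higher in plp-1(ok2155). Over all tested genes 9.56% had such a p, 6.36% higher and 3.2% lower. DESeq2 called none of the 38 and gave none an unadjusted p under 0.05, while it called 3.27% of the genes it adjusted. A log2 fold change above 0 was fitted for 31 of the 38 genes and one below 0 for 7, and over all tested genes 47.5% were above 0. The median was 0.30 over the 38 genes and -0.032 over all tested genes. The 38 values share libraries and vary together, so the counts of signs describe these 6 libraries.

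The intervals show how large a difference the data leave possible. The 95% interval of the log2 fold change lay below a log2 fold change of 1 for 19 of the 38 genes and above -1 for 37, the exception being rnr-2. The widest upper bound was 2.22, for cyd-1, the gene of the 38 with the lowest level. A missed threshold at this precision (median SE 0.31) does not show that the levels were equal.

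Among the 11 replication genes, 9 had positive and 2 negative log2 fold changes, a median of 0.37 and none called. The highest values belonged to subunits of the MCM helicase. The gene mcm-4 (gene ID 171793, chromosome I from 2318427 to 2321810, minus strand, WBcel235) had 287, 174 and 129 CPM in plp-1(ok2155) replicates 1, 2 and 3, against 157, 97.2 and 97.4 CPM in wild-type replicates 1, 2 and 3. This gave a log2 fold change of 0.75 ± 0.35 (SE, adjusted p in edgeR 0.557). For mcm-7 (chromosome V from 4347198 to 4349544, plus strand), another subunit of the ring, the level was 419, 232 and 155 CPM in the plp-1(ok2155) libraries, against 206, 142 and 128 CPM in the wild-type libraries. Its log2 fold change of 0.76 ± 0.39 (SE, adjusted p in edgeR 0.603) had a 95% interval of -0.14 to 1.65. The subunit gene mcm-2 (chromosome II from 12001673 to 12006608, minus strand) held 405, 245 and 194 CPM in the plp-1(ok2155) libraries, against 227, 148 and 165 CPM in the wild-type libraries, and had a log2 fold change of 0.64 ± 0.33 (SE, adjusted p in edgeR 0.606). In all 3 of these subunit genes plp-1(ok2155) replicate 1 was the highest library, and plp-1(ok2155) replicate 3 lay below wild-type replicate 1, so the groups overlapped.

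The remaining subunits had log2 fold changes of 0.64 for mcm-3, 0.33 for mcm-6 and 0.22 for mcm-5. The clamp gene pcn-1 averaged 293 ± 99.8 CPM in plp-1(ok2155) and 202 ± 42.4 CPM in wild-type (SD, n = 3 each), a log2 fold change of 0.54 ± 0.31 (SE, adjusted p in edgeR 0.654). The genes of the licensing factors that load the helicase stood at 0.21 ± 0.38 for cdt-1 and -0.040 ± 0.26 for cdc-6 (SE). The value of cdt-1 was close to that of mcm-5. The gene cdt-1, the lowest of the group per length, had 84.2, 61.8 and 31.5 CPM in the plp-1(ok2155) libraries, against 66.5, 47.2 and 39.3 CPM in the wild-type libraries. Its lowest library was plp-1(ok2155) replicate 3 and its highest plp-1(ok2155) replicate 1. The subunits of ribonucleotide reductase had values of opposite sign, but both 95% intervals spanned 0. The large subunit gene rnr-1 stood at 0.37 ± 0.38 (SE, adjusted p in edgeR 0.806). The small subunit gene rnr-2 stood at -0.19 ± 0.35 (SE, adjusted p in edgeR 0.898). The gene rnr-2 (chromosome III from 4093515 to 4094888, minus strand) was the most abundant of the 38 per length and held 632, 686 and 389 CPM in the plp-1(ok2155) libraries, against 479, 919 and 556 CPM in the wild-type libraries. Wild-type replicate 2 stood highest and plp-1(ok2155) replicate 3 lowest, and the wild-type libraries alone spanned a 1.92-fold range.

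Of the 9 cyclins and cell cycle kinases, 7 had positive and 2 negative log2 fold changes (median 0.30), and none was called. The B-type cyclins, which activate the mitotic kinase, had the smallest p. For cyb-3 (chromosome V from 15395713 to 15397067, plus strand) the level was 730.3, 471 and 309 CPM in the plp-1(ok2155) libraries, against 399, 281 and 271 CPM in the wild-type libraries, a log2 fold change of 0.67 ± 0.36 (SE, adjusted p in edgeR 0.621). For cyb-1 (chromosome IV from 10735456 to 10736752, plus strand) it was 308, 215 and 133 CPM in the plp-1(ok2155) libraries, against 171, 129.7 and 119 CPM in the wild-type libraries, a log2 fold change of 0.64 ± 0.34 (SE, adjusted p in edgeR 0.606). In both genes plp-1(ok2155) replicates 1 and 2 stood above all wild-type libraries, and replicate 3 lay within the wild-type range. The Polo-like kinase gene plk-1, which acts at mitotic entry and at centrosomes, had 338, 267 and 194 CPM in the plp-1(ok2155) libraries, against 221, 223 and 188 CPM in the wild-type libraries, a log2 fold change of 0.34 ± 0.27 (SE, adjusted p in edgeR 0.748). Here too plp-1(ok2155) replicates 1 and 2 were the highest libraries.

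The mitotic kinase gene cdk-1, the partner of the B-type cyclins, had a log2 fold change of -0.12 with a 95% interval of -0.76 to 0.53. Its mean level was 241 ± 24.6 CPM in plp-1(ok2155) and 261 ± 75.9 CPM in wild-type (SD, n = 3 each). The gene cdk-2, whose kinase acts with cyclin E in S phase, stood at 0.30, and cye-1, the cyclin E gene, at 0.28. Cyclin D, encoded by cyd-1 (chromosome II from 12988223 to 12992554, plus strand), drives the entry into the cycle in larval lineages. It was the rarest transcript of the 38, with 13.3, 7.999 and 3.55 CPM in the plp-1(ok2155) libraries, against 8.48, 3.66 and 2.37 CPM in the wild-type libraries. Within each group its highest library exceeded its lowest by 3.74-fold in plp-1(ok2155) and 3.58-fold in wild-type, and its log2 fold change of 0.77 ± 0.63 (SE, adjusted p in edgeR 0.752) carried the widest interval. The Aurora kinase genes stood at -0.18 for air-1, which acts on centrosomes and spindles, and 0.093 for air-2, which acts on chromosomes and the midzone.

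The 7 kinetochore genes had 5 positive and 2 negative log2 fold changes, a range of -0.086 to 0.38, a median of 0.11 and none called. The smallest p belonged to hcp-4, the CENP-C gene, with 167, 111 and 87.3 CPM in the plp-1(ok2155) libraries, against 105, 87.7 and 87.9 CPM in the wild-type libraries, a log2 fold change of 0.38 ± 0.28 (SE, adjusted p in edgeR 0.724). For bub-1, a checkpoint kinase gene, the level was 269, 214 and 171 CPM in the plp-1(ok2155) libraries, against 191, 174 and 164 CPM in the wild-type libraries, a log2 fold change of 0.31 ± 0.25 (SE, adjusted p in edgeR 0.752). In both genes plp-1(ok2155) replicates 1 and 2 lay above the wild-type range. The outer kinetochore scaffold gene knl-1 (chromosome III from 8250636 to 8253943, plus strand) had 218, 186 and 113 CPM in the plp-1(ok2155) libraries, against 157, 137 and 107 CPM in the wild-type libraries, a log2 fold change of 0.37 ± 0.30 (SE, adjusted p in edgeR 0.752). Its plp-1(ok2155) replicate 3 lay within the wild-type range. Subunits of the microtubule-binding Ndc80 complex stood at -0.082 (ndc-80) and 0.11 (him-10, the Nuf2 subunit). The most abundant of the group per length, ndc-80 (chromosome IV from 10086147 to 10088310, plus strand), held 168, 169 and 103 CPM in the plp-1(ok2155) libraries, against 157, 178 and 131 CPM in the wild-type libraries. Wild-type replicate 2 was its highest library and plp-1(ok2155) replicate 3 its lowest. The CENP-A gene hcp-3 and the gene of its loading factor, knl-2, had log2 fold changes of 0.058 and -0.086. How reads were divided between hcp-3 and its paralogue cpar-1 is not shown in the tables, so the value of hcp-3 is uncertain.

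All 4 genes of spindle motors and the midzone had positive log2 fold changes (median 0.50), and none was called. The gene cyk-4 (chromosome III from 13768801 to 13771223, minus strand) encodes the GTPase-activating protein of centralspindlin, the complex that bundles midzone microtubules for cytokinesis. It had 213, 131 and 112 CPM in plp-1(ok2155) replicates 1, 2 and 3, against 110.3, 83.9 and 92.02 CPM in wild-type replicates 1, 2 and 3. It was the only gene of the 38 whose groups did not overlap, where 8.75% of all tested genes were higher and 5.49% lower in plp-1(ok2155) without overlap. Its log2 fold change was 0.67 (SE 0.29, unadjusted p = 0.0490, adjusted p = 0.523, edgeR's quasi-likelihood test). The annotation places a noncoding gene on the opposite strand over 49 of its exonic bases. The partner of CYK-4 in centralspindlin, the kinesin gene zen-4 (chromosome IV from 6118224 to 6121436, plus strand), held 244, 223 and 136 CPM in the plp-1(ok2155) libraries, against 171, 187 and 138 CPM in the wild-type libraries, a log2 fold change of 0.28 ± 0.29 (SE, adjusted p in edgeR 0.801). The microtubule-depolymerising kinesin gene klp-7 had 112, 66.00 and 65.7 CPM in the plp-1(ok2155) libraries, against 69.03, 45.2 and 50.5 CPM in the wild-type libraries, a log2 fold change of 0.57 ± 0.30 (SE, adjusted p in edgeR 0.613). The chromokinesin gene klp-19 had 291, 199.9 and 126 CPM in the plp-1(ok2155) libraries, against 190.3, 142 and 126 CPM in the wild-type libraries, a log2 fold change of 0.43 ± 0.34 (SE, adjusted p in edgeR 0.743). In these last genes the highest library was plp-1(ok2155) replicate 1, and the groups overlapped.

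Of the 7 centrosome genes, 6 had positive and 1 negative log2 fold changes (median 0.083), and none was called. The genes spd-2 and spd-5 encode scaffold proteins of the pericentriolar material. The gene spd-2 had 242, 171 and 108 CPM in the plp-1(ok2155) libraries, against 133, 105 and 104 CPM in the wild-type libraries, a log2 fold change of 0.61 ± 0.32 (SE, adjusted p in edgeR 0.606), while spd-5 stood at 0.022 with a 95% interval of -0.71 to 0.75. For spd-2 plp-1(ok2155) replicates 1 and 2 lay above all wild-type libraries, and replicate 3 lay within their range. The centriole assembly gene sas-4 (chromosome III from 8314576 to 8318581, minus strand), the lowest of the group per length, held 70.7, 56.4 and 46.3 CPM in the plp-1(ok2155) libraries, against 61.7, 41.8 and 37.4 CPM in the wild-type libraries, a log2 fold change of 0.30 ± 0.29 (SE, adjusted p in edgeR 0.796). The gene sas-5 (chromosome V from 11610779 to 11612475, plus strand), whose product acts with SAS-6 in centriole assembly, held 124, 114 and 54.1 CPM in the plp-1(ok2155) libraries, against 90.4, 92.1 and 64.6 CPM in the wild-type libraries, a log2 fold change of 0.24 ± 0.34 (SE, adjusted p in edgeR 0.862). In both genes plp-1(ok2155) replicate 1 was the highest library, and the groups overlapped. The cartwheel gene sas-6 and zyg-1, the kinase gene of centriole duplication, stood at 0.083 and 0.073. The gamma-tubulin gene tbg-1 (chromosome III from 9626677 to 9629154, minus strand), which nucleates microtubules, was the most abundant of the group per length and had 159, 159.5 and 125 CPM in the plp-1(ok2155) libraries, against 130.3, 181 and 149 CPM in the wild-type libraries, a log2 fold change of -0.054 ± 0.24 (SE, adjusted p in edgeR 0.965). Its highest library was wild-type replicate 2.

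**Figure D1:**
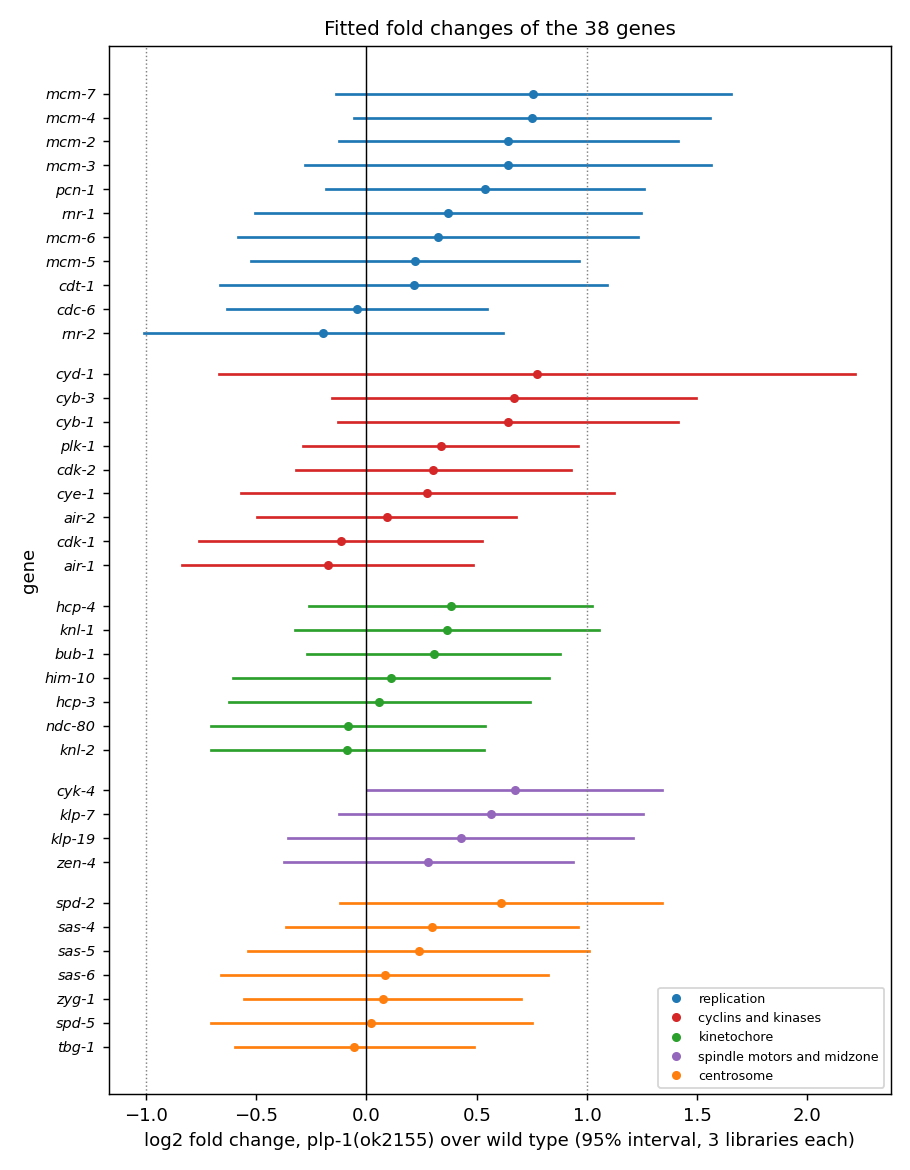
Fitted log2 fold change of plp-1(ok2155) over wild-type for each of the 38 genes (points) with its 95% interval (lines, 3 libraries per group), coloured by role group, and dotted lines mark -1 and 1. Every interval except that of cyk-4 (0.0039 to 1.34) spans 0.

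The libraries of a group differed from each other across most of the 38 genes. The library plp-1(ok2155) replicate 1 held the highest CPM for 31 of the 38 genes, against 22.1% of all tested genes. The library plp-1(ok2155) replicate 3 held the lowest CPM for 21 of them and wild-type replicate 3 for 12, against 21.03% and 10.8% of all tested genes. The 6 genes cdc-6, rnr-2, cdk-1, air-1, ndc-80 and tbg-1 were highest in wild-type replicate 2, and cdk-2 was highest in plp-1(ok2155) replicate 2. The summed level of the 38 genes was 9224, 7295 and 4689 CPM in plp-1(ok2155) replicates 1, 2 and 3, against 6291, 6254 and 5008 CPM in wild-type replicates 1, 2 and 3. The highest library exceeded the lowest by a median of 1.93-fold within plp-1(ok2155) and 1.48-fold within wild-type. The wider range was in plp-1(ok2155) for 32 of the 38 genes, against 45.7% of all tested genes.

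**Figure D2:**
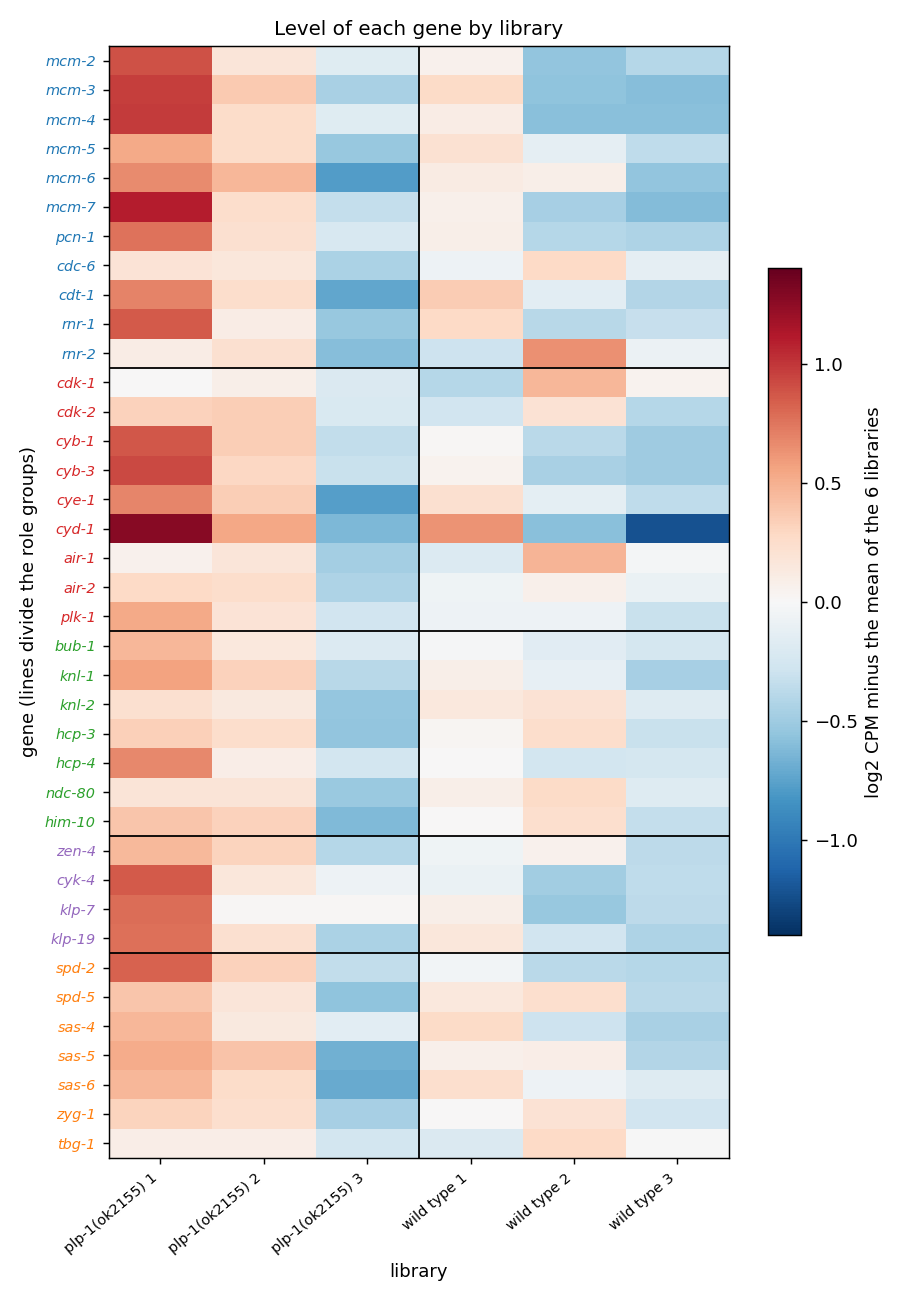
Level of each of the 38 genes (rows, coloured by role group) in each library (columns), as log2 CPM minus the mean of the gene's 6 libraries; red is above and blue below that mean. The column of plp-1(ok2155) replicate 1 holds the highest value for 31 genes, and the columns of the third replicate of each strain are mostly blue.

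Libraries of the same replicate number deviated together from their group means across all genes. Set against the wild-type library of its own number, plp-1(ok2155) was higher for 38 of the 38 genes in replicate 1, 30 in replicate 2 and 16 in replicate 3. The shares over all tested genes were 56.9%, 50.4% and 42.5%. The median log2 difference of the 38 genes was 0.48, 0.36 and -0.097 in these pairs. The counts depended on the scaling. As a share of all deposited counts, without TMM, plp-1(ok2155) was higher for 27, 35 and 24 of the 38 genes. In replicate 3 the 38 genes took 0.466% of the counts in plp-1(ok2155) (95% Wilson interval 0.464% to 0.468%) and 0.425% in wild-type (0.423% to 0.427%), whereas their summed CPM was lower in plp-1(ok2155). These intervals cover counting error only.

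In TMM-scaled CPM plp-1(ok2155) was higher than wild-type in all 3 pairs for 16 of the 38 genes, against 19.8% of all tested genes. These are the same 16 that were higher in replicate 3. The count over all 3 pairs without TMM was not made. With the replicate number as a block in the edgeR fit, none of the 38 was called (lowest adjusted p = 0.160, for mcm-4; 1.45% of all tested genes were called). At an unadjusted p under 0.05 the block gave 8 of the 38 higher, against 8.57% of all tested genes, and none lower, against 6.46%. They were mcm-2, mcm-3, mcm-4, mcm-7, cyb-1, cyk-4, klp-7 and spd-2. The median log2 fold change of the 38 genes depended most on plp-1(ok2155) replicate 1 and wild-type replicate 3. It was 0.073 without the first and 0.095 without the second, and 0.43 without plp-1(ok2155) replicate 3. The median of the replication genes was 0.058 without plp-1(ok2155) replicate 1 and 0.19 without wild-type replicate 3, and that of the spindle and midzone genes was 0.19 without plp-1(ok2155) replicate 1. That of the cyclins and kinases was 0.13 without plp-1(ok2155) replicate 1 and 0.14 without wild-type replicate 3. The median of the kinetochore genes turned to -0.057, -0.015 and -0.086 without plp-1(ok2155) replicate 1, plp-1(ok2155) replicate 2 and wild-type replicate 3. That of the centrosome genes turned to -0.067, -0.011 and -0.080 without the same libraries.

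Markers of oocytes and of germline progenitors were, like most of the 38 genes, highest in plp-1(ok2155) replicate 1. The 22 markers of oocytes and maternal stores summed to 13279, 9145 and 5501 CPM in the plp-1(ok2155) libraries, against 8237, 5599 and 5255 CPM in the wild-type libraries. Of these markers 20 had positive log2 fold changes (median 0.52). None was called by edgeR or DESeq2, and 2 had an unadjusted p under 0.05. The 14 markers of germline stem and progenitor cells were all positive (median 0.36, none called by edgeR or DESeq2, 2 at an unadjusted p under 0.05), and summed to 3223 to 4911 CPM in plp-1(ok2155) and 2660.2 to 3269.6 CPM in wild-type. Of 39 sperm markers 36 were tested and 35 were positive (median 3.01). None of them was called by edgeR, where 34 passed an unadjusted 0.05, DESeq2 called 30, and edgeR with the replicate block called 3. Over all tested genes 9.56% passed an unadjusted 0.05 in edgeR, and 1.45% were called with the block. DESeq2 called 3.27% of the genes it adjusted. The sperm markers summed to 230.4, 251 and 81.7 CPM in the plp-1(ok2155) libraries, against 30.7, 17.2 and 46.7 CPM in the wild-type libraries. This order differed from that of the 38 genes, with plp-1(ok2155) replicate 2 the highest and wild-type replicate 2 the lowest library. In all, 0 of the 39 were at 0 counts in plp-1(ok2155) and 1 to 3 in the wild-type libraries. The 6 yolk protein genes, markers of the adult intestine, were all negative (median -0.58, none called by either tool or at an unadjusted p under 0.05) and summed to 44681 to 94477 CPM in plp-1(ok2155) and 37124 to 159710 CPM in wild-type.

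Of 20 early zygotic genes of the embryo 15 were tested and 14 were positive (median 0.77). None was called by edgeR, 1 higher and 1 lower passed an unadjusted 0.05, and DESeq2 called 1. They summed to 118 to 134 CPM in plp-1(ok2155) and 69.7 to 124 CPM in wild-type, with up to 3 of the 20 at 0 in a library. Among 17 larval cuticle genes edgeR called 1 higher, the collagen gene sqt-1 (log2 fold change 3.89, adjusted p in edgeR 0.0382). That call was lost in each of the 6 fits without a library. DESeq2 called 8 of the 17, the replicate block 6, and 8 were higher at an unadjusted p under 0.05. Over all tested genes 6.36% were higher at such a p, and the block called 1.45%. DESeq2 called 3.27% of the genes it adjusted. Of the 17, 10 were positive and 7 negative. The list's median was 1.12 with 96.4 to 157 CPM in plp-1(ok2155) and 58.5 to 610.3 CPM in wild-type. Among the 14 muscle markers edgeR called none without and 2 with the replicate block, DESeq2 called 2, 2 had an unadjusted p under 0.05, and the median was 0.35. Among the 14 neuron markers none was called by either tool or had an unadjusted p under 0.05, and the median was -0.22. The summed muscle level was 3153 to 5554 CPM in plp-1(ok2155) and 2285 to 5082 CPM in wild-type, and the summed neuron level was 159 to 194 CPM in plp-1(ok2155) and 157 to 245 CPM in wild-type. The part of these stage and tissue markers in the values of the 38 genes was not tested.

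**Figure D3:**
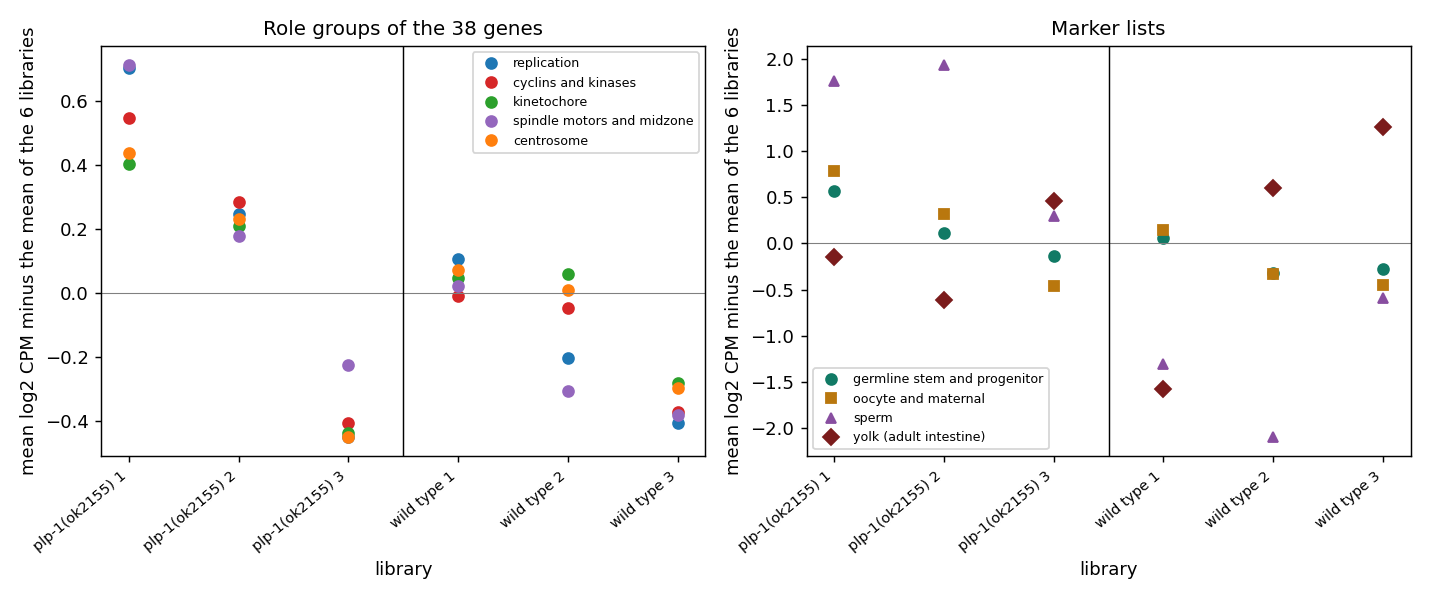
Mean log2 CPM of each role group (left) and of 4 marker lists (right) in each library, minus the mean of the 6 libraries. All role groups are highest in plp-1(ok2155) replicate 1, and the oocyte and germline lists follow the same order in the plp-1(ok2155) libraries while yolk does not.

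Per length, in the authors' deposited FPKM, the 38 genes spanned a mean of 5.33 FPKM for cyd-1 to 509.5 FPKM for rnr-2 over the 6 libraries, with a median of 75.3 FPKM. Means above 200 FPKM were held by rnr-2, cyb-3, pcn-1, cdk-1 and air-1. The mean level of rnr-2 was 485 ± 149 FPKM in plp-1(ok2155) and 534 ± 172 FPKM in wild-type (SD, n = 3 each), and that of its partner rnr-1 was 106 ± 47.04 FPKM in plp-1(ok2155) and 83.8 ± 38.5 FPKM in wild-type. Cyclin B3 led the cyclins, as cyb-3 averaged 419.7 ± 165 FPKM in plp-1(ok2155) and 269 ± 112 FPKM in wild-type and cyb-1 195 ± 73.8 FPKM in plp-1(ok2155) and 126 ± 48.8 FPKM in wild-type, and these ranges overlapped between cyb-3 in wild-type and cyb-1 in plp-1(ok2155). Among kinetochore genes the highest mean over the 6 libraries was 82.4 FPKM, for ndc-80. At the centrosome, tbg-1 averaged 108 ± 17.4 FPKM in plp-1(ok2155) and 109 ± 16.3 FPKM in wild-type and sas-4 23.1 ± 4.48 FPKM in plp-1(ok2155) and 19.2 ± 8.94 FPKM in wild-type. All libraries of tbg-1 lay above all libraries of sas-4. In the order of mean FPKM each gene overlapped its neighbours over the 6 libraries, except that cyd-1 lay wholly below sas-4.

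**Figure D4:**
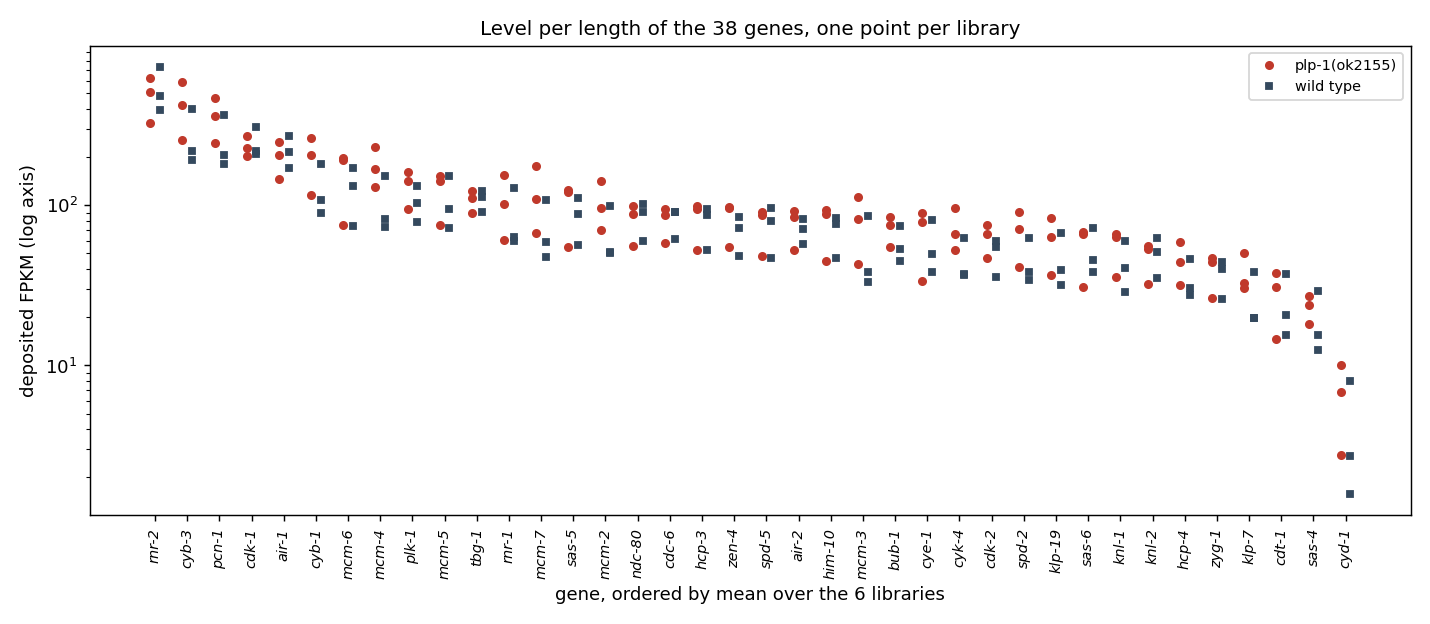
Deposited FPKM (log axis) of each of the 38 genes in the plp-1(ok2155) libraries (circles) and the wild-type libraries (squares), ordered by the mean over 6 libraries. The order runs from rnr-2 down to cyd-1, and neighbouring genes overlap except sas-4 and cyd-1.

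Ratios of counts within a library do not depend on library scaling and set partner genes against each other. In all, 14 pairs from the same complex or family were compared, chosen after the fold changes had been seen. The ratio of mcm-7 to mcm-5 was 1.12, 0.745 and 0.858 in plp-1(ok2155) replicates 1, 2 and 3, against 0.684, 0.595 and 0.632 in wild-type replicates 1, 2 and 3. That of mcm-4 to mcm-5 was 0.766, 0.558 and 0.717 in plp-1(ok2155) replicates 1, 2 and 3, against 0.520, 0.406 and 0.479 in wild-type replicates 1, 2 and 3. That of mcm-3 to mcm-5 was 0.787, 0.625 and 0.613 in plp-1(ok2155) replicates 1, 2 and 3, against 0.605, 0.429 and 0.493 in wild-type replicates 1, 2 and 3. In these 3 pairs every plp-1(ok2155) library lay above every wild-type library. The ratio of mcm-6 to mcm-5 ranged over 0.826 to 1.14 in plp-1(ok2155) and 0.859 to 1.14 in wild-type. The ratio of spd-5 to spd-2 was 1.45, 1.77 and 1.70 in plp-1(ok2155) replicates 1, 2 and 3, against 2.24, 3.03 and 2.01 in wild-type replicates 1, 2 and 3, and here every plp-1(ok2155) library lay below every wild-type library. Since the pairs were chosen with the values known, and a two-sided exact permutation test of 3 against 3 libraries cannot give a p below 0.1, these ratios are a description with no test. The MCM pairs share mcm-5 as their denominator. Its log2 fold change of 0.22 was the lowest of the MCM genes, so these ratios partly restate the fold changes. No share without overlap was computed for ratios of other genes. In the other pairs the groups overlapped. The ratio of cyb-3 to cyb-1 stayed between 2.19 and 2.37 in plp-1(ok2155) and between 2.16 and 2.33 in wild-type. The ratio of rnr-2 to rnr-1 varied more within groups, over 1.60 to 2.94 in plp-1(ok2155) and 1.82 to 5.55 in wild-type.

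**Figure D5:**
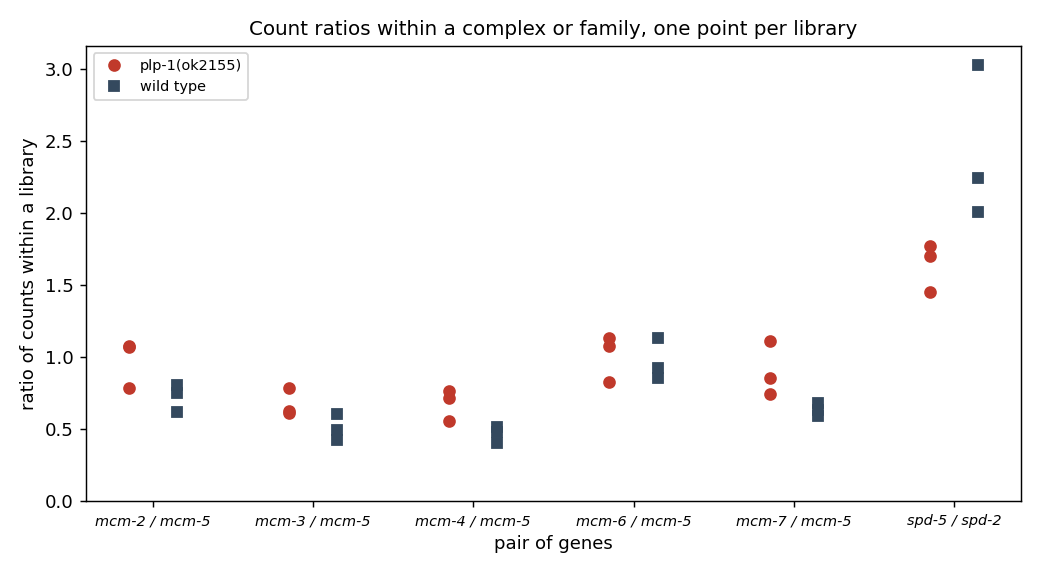
Ratio of the counts of a pair of genes within each library, for 5 MCM subunits over mcm-5 and for spd-5 over spd-2, in plp-1(ok2155) (circles) and wild-type (squares). The groups separate for mcm-3, mcm-4 and mcm-7 over mcm-5 and for spd-5 over spd-2, and overlap for mcm-2 and mcm-6 over mcm-5.

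The 38 genes had 53 transcripts in the transcript table, of which 50 were tested, and 10 genes had more than 1 transcript. None of the 50 was called (edgeR's quasi-likelihood test), and of all 20551 tested transcripts 0.0584% were. At an unadjusted p under 0.05 there was 1, the short transcript of mcm-4 with 225 coding bases, where 7.63% of all tested transcripts had such a p. It held 31.8, 21.95 and 21.8 CPM in plp-1(ok2155) replicates 1, 2 and 3, against 18.1, 12.5 and 12.03 CPM in wild-type replicates 1, 2 and 3, a log2 fold change of 0.83 (SE 0.30, adjusted p = 0.572). It took 13.6% ± 2.22 of the gene's counts in plp-1(ok2155) and 12.2% ± 1.22 in wild-type (SD, n = 3 each). The next smallest p among transcripts belonged to those of cyk-4 and spd-2, with log2 fold changes of 0.62 and 0.55 (adjusted p = 0.681 and 0.740). Transcript use could be tested in 7 of the 38 genes. None was called (diffSpliceDGE, 0.487% of 3288 genes called), and none had an unadjusted p under 0.05, where 1.76% of those genes did. The gene mcm-6 divided its counts almost evenly, its longer coding transcript taking 51.3% ± 1.77 of the gene's counts in plp-1(ok2155) and 49.2% ± 2.16 in wild-type. The gene cyb-3 was carried by its major transcript, which took 95.5% ± 1.25 of the gene's counts in plp-1(ok2155) and 95.1% ± 1.47 in wild-type. Because the gene FPKM is the sum over transcripts, the short transcript of mcm-4 counts towards the FPKM of that gene. Its full-length transcript averaged 54.1 FPKM over the 6 libraries and the short one 85.2 FPKM.

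Other genes of the same processes were read from 5 lists, of which 162 genes were tested. None was called in either direction, and DESeq2 called none. At an unadjusted p under 0.05 in edgeR, 3 were higher in plp-1(ok2155) and 0 lower. Over all tested genes 6.36% were higher and 3.2% lower at such a p. Their median log2 fold change was 0.15, with 107 positive and 55 negative. The 39 other replication genes had 19 positive and 20 negative log2 fold changes (median -0.047). Their smallest p belonged to pola-1, a DNA polymerase alpha gene, at 0.59 ± 0.32 (SE, adjusted p in edgeR 0.622), and top-2, the topoisomerase II gene, at 0.51 ± 0.34 (SE, adjusted p in edgeR 0.694). The 42 other cell cycle regulators had 32 positive and 10 negative log2 fold changes (median 0.17). The inhibitor gene cki-1, which restrains cyclin-dependent kinases, stood at -1.31 ± 0.57 (SE, adjusted p in edgeR 0.523), with 3.36, 2.203 and 3.17 CPM in the plp-1(ok2155) libraries, against 12.8, 2.94 and 5.79 CPM in the wild-type libraries. Wild-type replicate 1 was its highest library, and wild-type replicate 2 lay within the plp-1(ok2155) range. The kinase gene wee-1.1 stood at 1.49 ± 0.77 (SE, adjusted p in edgeR 0.601) at a low level. It held 1.67, 0.933 and 0.192 CPM in the plp-1(ok2155) libraries, against 0.341, 0.402 and 0.240 CPM in the wild-type libraries. Its lowest library was plp-1(ok2155) replicate 3, so the groups overlapped.

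The 40 other kinetochore and chromosome segregation genes had 25 positive and 15 negative log2 fold changes (median 0.16). Among them klp-18, a kinesin gene of the meiotic spindle, had 173, 114 and 103 CPM in the plp-1(ok2155) libraries, against 99.5, 65.8 and 66.7 CPM in the wild-type libraries, and a log2 fold change of 0.75 ± 0.29 (SE, adjusted p in edgeR 0.452), and kbp-1 stood at -0.59 ± 0.30 (SE, adjusted p in edgeR 0.595). The 24 other spindle and cytokinesis genes had 18 positive and 6 negative log2 fold changes (median 0.23). The smallest p were those of ebp-2, an EB1-type microtubule end-binding protein gene, at 0.72 ± 0.31 (SE, adjusted p in edgeR 0.517), and of ect-2, the RhoGEF gene of cytokinesis, at 0.69 ± 0.35 (SE, adjusted p in edgeR 0.595). The 17 other centrosome genes had 13 positive and 4 negative log2 fold changes (median 0.20). The gene szy-20 had 146, 102 and 89.96 CPM in the plp-1(ok2155) libraries, against 67.02, 55.1 and 63.5 CPM in the wild-type libraries, and a log2 fold change of 0.86 ± 0.25 (SE, adjusted p in edgeR 0.250), and its groups did not overlap. The groups of klp-18 and ebp-2 did not overlap either, while those of tpxl-1, ect-2, kbp-1, pola-1 and top-2 did. Over all tested genes 8.75% were higher without overlap. The genes named here were picked for their small p, which favours such a separation, so that share is not a like comparison. The gene tpxl-1, whose product activates AIR-1 on spindles, stood at 0.74 ± 0.33 (SE, adjusted p in edgeR 0.531).

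The 38 genes lie on 5 of the 6 chromosomes, 14 on chromosome III, 11 on I, 5 each on IV and V, 3 on II and none on X. Median log2 fold changes by chromosome were 0.28 on I, 0.64 on II, 0.31 on III, 0.28 on IV and 0.64 on V. Coding lengths ran from 792 bases (pcn-1) to 3597 bases (spd-5). Across the 38 genes, which share libraries and are not replicates, Spearman's rho of the log2 fold change was 0.28 with coding length and -0.10 with mean FPKM. In the annotation 15 of the 38 overlap an opposite-strand gene by 4 to 92 exonic bases. On the same strand, cdk-2 overlaps a noncoding gene by 100 exonic bases and sas-6 overlaps icap-1 by 17. Whether counting used the strand is not stated, so whether reads of such partners entered the counts is not known.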

How the data were processed

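Messenger RNA libraries of 3 plp-1(ok2155) and 3 wild-type samples were built with a stranded kit, per the labels' protocols. The submitters' processing notes name StringTie 1.3.4d, DESeq2 (no version), the aligners HISAT2 2.1.0 and Bowtie2 2.3.4.1, and FastQC 0.11.7 and Trimmomatic 0.38, without saying which made which file. The authors deposited whole-number estimated counts and FPKM per gene and per transcript on WBcel235. Checked against FPKM and coding length, the transcript counts of 1 to 50 tested had been rounded up, and gene values were sums over transcripts. Coordinates are the coding spans in the tables, 1-based, with strand and overlaps from the Ensembl annotation of that assembly. The series' design text calls the samples biological replicates.

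Entries without a gene symbol (0.00236% to 0.0246% of a library's counts) were left out. Genes were kept by edgeR's filterByExpr (15090 genes), scaled by TMM and tested with edgeR 4.0.16 (R 4.3.3) quasi-likelihood with group as the term, and adjusted by Benjamini-Hochberg over all tested genes. The SE of a fold change was its size over the root of the F statistic, and 95% intervals used that SE. Code was tested on simulated data. Alternatives used DESeq2 1.42.0, limma 3.58.1 on log2(FPKM + 1) and log2(FPKM + 0.1), other scalings and filters, a replicate block, and each library left out. The 38 genes were picked by name, with no measured value in the rule, but they and the lists were chosen with earlier results of these data known. Of 173 other pathway genes listed, 163 were in the table under that symbol. Genes were named by rule: in each role group the 3 smallest p and the highest and lowest mean FPKM; in each list of other genes the 2 smallest p and any called; among transcripts the 3 smallest p. The other members are given by their fold changes, and cpar-1, icap-1 and the ratio pairs were chosen after values were seen. A planned promoter motif search was not run.

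Same-numbered libraries of the groups deviated together from their group means (correlations 0.285, 0.205 and 0.358 for replicates 1, 2 and 3, over all tested genes), so the numbers were taken to pair the samples. The numbers come from the sample titles, which do not say that a number marks a shared batch or day. The pairing was thus inferred from these same data.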

Additional observations from a re-analysis of the deposited data

How the results depend on the processing

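Under all 15 alternatives, including each library left out in turn, none of the 38 genes and none of the other pathway genes was called. The median log2 fold change of the 38 genes stayed positive, 0.24 to 0.31 with all libraries and 0.073 to 0.43 with 1 left out. The sign held in every fit for 22 of the 38 genes, but the value moved by over 1.5 times with a library left out for all 22, for example 0.28 to 0.98 for mcm-7, 0.37 to 1.01 for mcm-4, 0.35 to 0.78 for cyk-4, 0.26 to 1.45 for cyd-1 and 0.090 to 0.61 for klp-19. For the other 16 it turned in at least 1 fit with a library left out, over ranges of -0.010 to 0.38 for mcm-5, -0.17 to 0.063 for cdc-6, -0.13 to 0.44 for cdt-1, -0.067 to 0.60 for rnr-1, -0.38 to 0.069 for rnr-2, -0.31 to 0.067 for cdk-1, -0.037 to 0.51 for cye-1, -0.029 to 0.21 for air-2, -0.26 to 0.036 for knl-2, -0.14 to 0.21 for hcp-3, -0.25 to 0.038 for ndc-80, -0.086 to 0.29 for him-10, -0.21 to 0.17 for spd-5, -0.15 to 0.27 for sas-6, -0.10 to 0.20 for zyg-1 and -0.17 to 0.021 for tbg-1. With all libraries, hcp-3 turned to -0.0081 without a filter, and spd-5 to -0.026 with upper-quartile scaling, -0.045 without a filter and -0.0071 with the replicate block. Over all genes, 40 were called higher and 12 lower. DESeq2 called 485 and 101, the replicate block 155 and 64, and library totals alone, an alternative added after seeing the data, 23 higher. With a library left out the counts were 0 to 18 higher and 1 to 5 lower. The cause was not tested. The block, which pairs libraries by number, changed no call on the 38 genes or the other pathway genes, and added calls among the sperm, cuticle and muscle markers. Counts of the 38 genes were at least 79 in every library. The precision rests on 3 libraries per group and on the spread between them. That spread was a median range of 1.93-fold within plp-1(ok2155) and 1.48-fold within wild-type.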
